A study of Homo sapiens with 6 samples.

Results

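The genes described here are 36 genes of glycolysis and of the cellular response to low oxygen, out of 60664 gene rows in the count table. They were chosen by name from a list of glycolytic enzymes and known targets of the hypoxia-inducible factors (HIF), and all 36 symbols were found once in the table. Of them, 17 are glycolytic enzymes or their direct regulators, and 19 are other HIF targets such as transporters, secreted proteins and stress regulators. RNA came from HCT-8, an established human colorectal cancer cell line, transfected either with a plasmid for a short hairpin RNA against PNISR (shPNISR, 3 libraries) or with a control hairpin plasmid (shNC, 3 libraries). PNISR encodes a nuclear protein rich in serine and arginine, and the series was made to look for splicing that depends on it. Both groups carry a hairpin plasmid and were grown in the same medium with serum, and the labels name no oxygen or glucose treatment for either group. The labels do not say whether the cells were selected, whether more than 1 hairpin sequence was used, or whether libraries of 1 group are independent cultures. The p-values therefore reflect variation among these libraries, and that variation may be technical.

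HIF is a pair of proteins, an oxygen-labile alpha subunit (HIF-1alpha or HIF-2alpha) and the stable partner ARNT. In oxygenated cells prolyl hydroxylases of the EGLN family mark the alpha subunit for destruction by the VHL ubiquitin ligase, so HIF is controlled mainly at the level of its protein and not of its mRNA. When oxygen is scarce, the stabilized pair binds short DNA elements with the core RCGTG (R is A or G) near its target genes and raises their transcription. Its targets import glucose, carry it through glycolysis to lactate, export lactate and acid, divert pyruvate from mitochondria, modify collagen and promote vessel growth. Colorectal cancer cells also run glycolysis in oxygen, and several of the enzymes are abundant in any growing cell.

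The promoters of 4 members are shown because these members carry the results below: ANGPTL4 and ANKRD37 differed most between control libraries of all members, ALDOC differed most of the enzymes, and CA12 had the smallest adjusted p between the groups. Each is 250 bases before to 50 bases after a RefSeq transcription start (GRCh38.p14), written 5′ to 3′ on the gene's strand. Capitals mark the HIF core, ACGTG or GCGTG, on either strand (CACGT and CACGC are the same letters read on the other strand, and CACGTG holds ACGTG on both strands). The windows are chr19:8363905-8364204 on the plus strand for ANGPTL4, chr4:185396591-185396890 on the plus strand for ANKRD37, chr17:28576846-28577145 on the minus strand for ALDOC, and chr15:63381797-63382096 on the minus strand for CA12.
ANGPTL4: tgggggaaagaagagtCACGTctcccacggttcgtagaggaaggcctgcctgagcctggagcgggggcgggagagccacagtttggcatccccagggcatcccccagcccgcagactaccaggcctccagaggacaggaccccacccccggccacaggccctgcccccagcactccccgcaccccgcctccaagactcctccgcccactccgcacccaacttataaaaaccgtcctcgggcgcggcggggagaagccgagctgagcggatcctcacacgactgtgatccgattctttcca
ANKRD37: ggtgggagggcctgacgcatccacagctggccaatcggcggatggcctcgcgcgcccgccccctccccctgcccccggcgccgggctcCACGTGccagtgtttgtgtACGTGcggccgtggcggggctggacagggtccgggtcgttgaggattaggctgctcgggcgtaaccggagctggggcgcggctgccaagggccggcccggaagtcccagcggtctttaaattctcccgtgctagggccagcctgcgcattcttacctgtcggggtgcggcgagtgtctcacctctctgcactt
ALDOC: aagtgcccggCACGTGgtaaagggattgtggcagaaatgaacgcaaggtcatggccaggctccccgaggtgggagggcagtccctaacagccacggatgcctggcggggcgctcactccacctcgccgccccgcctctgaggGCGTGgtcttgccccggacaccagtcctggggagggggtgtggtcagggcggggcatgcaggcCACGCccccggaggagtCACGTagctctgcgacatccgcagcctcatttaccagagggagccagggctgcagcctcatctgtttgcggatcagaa
CA12: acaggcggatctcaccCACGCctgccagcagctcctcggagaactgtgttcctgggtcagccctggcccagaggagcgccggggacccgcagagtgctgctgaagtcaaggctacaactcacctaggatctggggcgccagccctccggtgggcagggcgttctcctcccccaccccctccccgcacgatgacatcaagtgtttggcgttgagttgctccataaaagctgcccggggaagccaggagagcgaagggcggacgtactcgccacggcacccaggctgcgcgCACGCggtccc

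The ALDOC window held 5 matches and the ANKRD37 window 3, and both held a CACGTG. The CA12 window held 2 matches and the ANGPTL4 window 1. RefSeq promoters were matched for 33 of the 36 members and not for NDRG1, SLC2A3 and VEGFA. Of the 56 windows of these 33 genes, 41 (73.2%) held a core match on either strand, against 48.4% of 35116 windows of all genes. Counting only genes with a single listed start, 19 of 22 members (86.4%) and 47.3% of all such genes held one. CACGTG itself was in 12.5% of member windows and in 7.26% of all windows. The background was 27305 genes, expressed here or not, and was not matched for GC content. Members were chosen by name from glycolytic enzymes and known HIF targets, so the difference is not a result of these data. A match of these letters is a description of the window, not evidence of binding.

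The hairpin's target was lower in the shPNISR libraries. PNISR (ENSG00000132424, chr6:99398051-99425331, minus strand) had 18.5, 20.7 and 27.6 CPM (counts scaled to a library of fixed size with TMM factors) in shPNISR 1 to 3, against 55.3, 50.2 and 62.8 CPM in shNC 1 to 3. The groups did not overlap, and the log2 fold change was -1.33 ± 0.15 (standard error, as for every fitted value here; adjusted p = 8.73e-05, edgeR's quasi-likelihood test with Benjamini-Hochberg adjustment over all tested genes). Libraries held 15049485 to 17977803 counts. Within each group every pair of libraries differed by more than sampling noise. One library did not lie with its group: shNC 2 scored 0.787 on the first principal component (44.8% of the variance), between 16.9 to 24.6 in shPNISR and -35.2 and -31.2 in shNC 1 and shNC 3. By a chi-square of counts per gene shNC 2 was nearer to shPNISR 3 (8.67) and shPNISR 1 (12) than to shNC 1 (19) or shNC 3 (20.6). It was as far from shPNISR 2 (19.9) as from those controls. The PNISR level of shNC 2, 50.2 CPM, was that of a control. Results below are therefore given with all 6 libraries and again without shNC 2, which was singled out after its values were seen. Adjusted p-values without shNC 2 take no account of that choice and are descriptive. Where no other test is named, both sets of results use edgeR's test as described above.

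The members followed this split of the libraries. Most were high in all 3 shPNISR libraries and in shNC 2, and low in shNC 1 and shNC 3. Of the 35 members with enough counts to test, shNC 1 and shNC 3 were both below the other 4 libraries for 33 (94.3%), against 17.7% of the 16102 genes tested. That count was 15 of 17 for the enzymes and 18 of 18 for the other targets, and it describes an arrangement noticed after the values were seen. The other targets together took 0.181%, 0.196% and 0.198% of all counts in shPNISR 1 to 3, against 0.086%, 0.196% and 0.0828% in shNC 1 to 3. The enzymes took 1.92%, 1.95% and 1.70% in shPNISR and 1.42%, 1.84% and 1.43% in shNC. So the shNC 2 share lay within the shPNISR range for both classes. These are bulk libraries, in which more cells expressing a gene and more RNA per cell cannot be told apart.

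**Figure D1:**
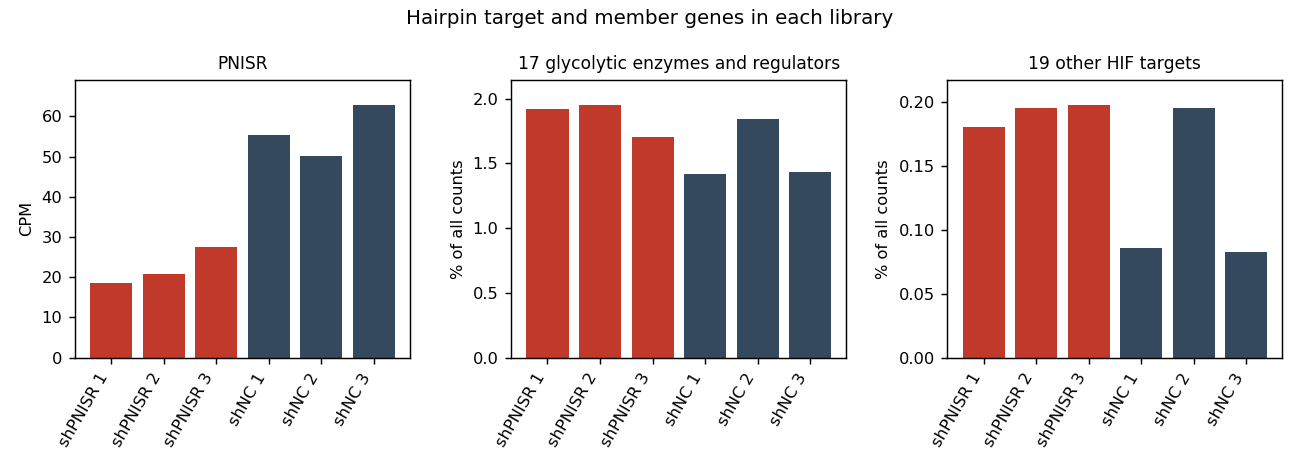
Bars give, for each of the 6 libraries (shPNISR 1 to 3, then shNC 1 to 3), the PNISR level in CPM and the percent of all counts taken by the 17 enzymes and by the other HIF targets. PNISR is low in the shPNISR libraries alone, while both member sums are low in shNC 1 and shNC 3 and not in shNC 2.

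For single members, the level in shNC 2 was above all 3 shPNISR libraries for 13, inside their range for 15 and between them and the other control libraries for 7, and for none was it at or below another control library (19.9% of all tested genes). The median member deviated from its 6-library mean by 0.22, 0.32 and 0.19 on the log2 scale in shPNISR 1 to 3, and by -0.42, 0.32 and -0.48 in shNC 1 to 3. The same median over all tested genes was 0.00 to 0.01 in every library. For the other targets it was 0.21, 0.42 and 0.37 in shPNISR against -0.60, 0.42 and -0.56 in shNC, and for the enzymes 0.22, 0.21 and 0.02 in shPNISR against -0.30, 0.23 and -0.40 in shNC.

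**Figure D2:**
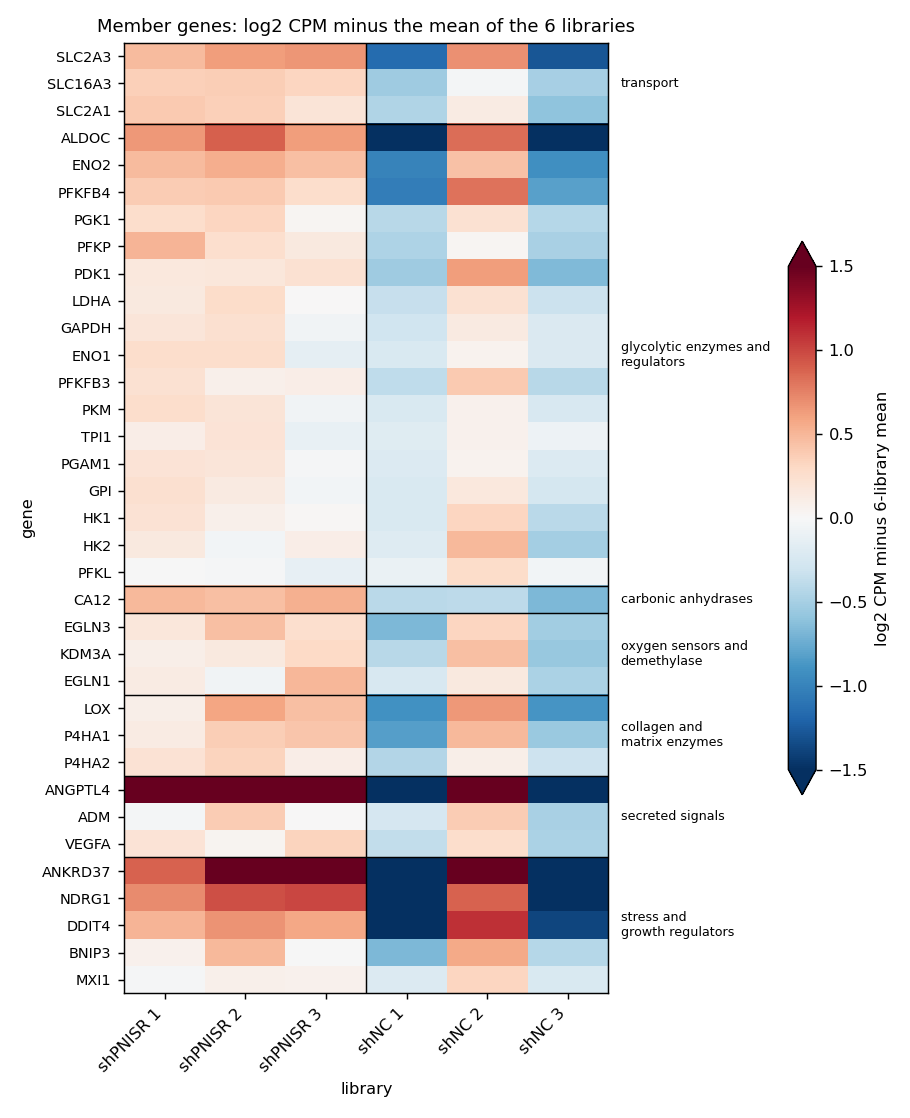
Each row is a member, grouped by class and role, each column a library, and the colour is its log2 CPM minus its mean over the 6 libraries. The shNC 1 and shNC 3 columns are below the mean for all 35 tested members, while shNC 2 is nearer to the shPNISR columns for most members and is at the control level for CA12.

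With all 6 libraries, 3 members rose and none fell in shPNISR. The share called higher was 8.57% of 35, beside a background of 2.3% of all tested genes higher (371 genes) and 0.832% lower (134 genes). At an unadjusted p under 0.05, 7 of the 35 members passed, all of them higher. That share, in either direction, was near the 17.8% of all tested genes that passed in either direction. All 3 shPNISR libraries were above all 3 shNC libraries for 7 of the 35 members, against 11.5% of all tested genes. The median log2 fold change was 0.38 over the members, 0.25 over the enzymes, 0.55 over the other targets and -0.01 over all tested genes, and 34 of 35 members were fitted above 0.

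CA12, a membrane carbonic anhydrase that helps cells export acid, was the member that went with the hairpin and not with shNC 2. CA12 (ENSG00000074410, chr15:63321378-63382161) had 33.4, 32.6 and 34.6 CPM in shPNISR 1 to 3, against 18, 18.2 and 14.9 CPM in shNC 1 to 3. The groups did not overlap and shNC 2 lay with its own group. CA12 rose by 0.98 ± 0.14 on the log2 scale (adjusted p = 0.000555, edgeR), and by 1.02 ± 0.14 without shNC 2. Its relative CA9, the carbonic anhydrase widely used as a hypoxia marker, was barely detected, with 10, 16 and 7 counts in shPNISR and 0, 18 and 1 in shNC, and was not tested. The 0 in shNC 1 allows up to 3 counts. Of the CA9 exon bases, 38.5% are shared with ARHGEF39 on the opposite strand, so even these few reads may not be its own. ARHGEF39 had 38.3 to 39.2 CPM in shPNISR, against 50.1, 42.3 and 48.1 CPM in shNC 1 to 3. It was thus highest in shNC 1 and shNC 3, where CA9 had 0 and 1 counts.

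SLC16A3, the transporter MCT4 that exports lactate from glycolytic cells, rose and kept its call in every alternative fit that was run. SLC16A3 (ENSG00000141526, chr17:82228397-82261129) had 156, 158 and 152 CPM in shPNISR 1 to 3, against 84.4, 119.5 and 86.5 CPM in shNC 1 to 3. Its groups did not overlap, and shNC 2 stood between them. The log2 fold change was 0.68 ± 0.13 (adjusted p = 0.00511, edgeR) and 0.86 ± 0.11 without shNC 2. Its exons share 5.4% of their bases with CSNK1D on the opposite strand, which stood at 245 to 273 CPM in shPNISR and 254 to 274 CPM in shNC.

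The glucose importers SLC2A1 (GLUT1) and SLC2A3 (GLUT3) differed in how far they varied. SLC2A1 had 594, 579.5 and 518 CPM in shPNISR 1 to 3, against 332, 494 and 299 CPM in shNC 1 to 3, a log2 fold change of 0.59 ± 0.16 that missed the threshold (adjusted p = 0.0563, edgeR) and passed it in 6 of the alternative fits of all 6 libraries (adjusted p of 0.000125 to 0.0484). SLC2A3, with higher affinity for glucose, had 73.6, 81.3 and 83.4 CPM in shPNISR, against 23.6, 84.7 and 21.6 CPM in shNC. For SLC2A3 shNC 2 exceeded every shPNISR library, and the fitted 0.88 ± 0.64 had an adjusted p of 0.559. Without shNC 2 both rose, SLC2A1 by 0.83 ± 0.12 (adjusted p = 0.000173) and SLC2A3 by 1.81 ± 0.13 (adjusted p = 1.54e-08). Per kilobase of exon the level of SLC2A1 was the higher, at 119.3 CPM in shPNISR and 79.4 CPM in shNC, and that of SLC2A3 was 12.9 CPM in shPNISR and 7.03 CPM in shNC.

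PFKP, the platelet-type phosphofructokinase of the committed step of glycolysis, was the 1 enzyme of 17 that rose in the edgeR test with all 6 libraries. PFKP (ENSG00000067057, chr10:3066333-3137712) had 237, 199 and 186 CPM in shPNISR 1 to 3, against 121, 171 and 119.7 CPM in shNC 1 to 3. The groups did not overlap, with shNC 2 the nearest control to them. The log2 fold change was 0.59 ± 0.14 (adjusted p = 0.0293, edgeR), and the call was lost without shNC 1 (0.137), shPNISR 1 (0.171) or shPNISR 3 (0.0595). The liver-type PFKL was the only member fitted below 0 (-0.10 ± 0.12, adjusted p = 0.694), with 195 to 211 CPM in shPNISR and 198 to 256 CPM in shNC.

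By the ratio of the highest to the lowest library, ALDOC, PFKFB4, ENO2 and PDK1 varied most of the enzymes and regulators. PFKFB3, which varied less than HK2 and PFKP, is given beside its paralog. ALDOC, the brain-type aldolase that splits fructose bisphosphate, had 68.9, 82.3 and 67.9 CPM in shPNISR 1 to 3, against 15.2, 78.8 and 15.6 CPM in shNC 1 to 3. ENO2, the neuronal-type enolase, had 91.6, 96.4 and 89.9 CPM in shPNISR, against 32.8, 89.7 and 34.8 CPM in shNC. For both, shNC 2 sat with or next to the shPNISR libraries and the other controls lay far below them. PFKFB4, which makes the phosphofructokinase activator fructose 2,6-bisphosphate, had 44.1, 44.2 and 40.4 CPM in shPNISR, against 16.4, 59.6 and 19 CPM in shNC. Its paralog PFKFB3, with the same product, had 88.0 to 97.5 CPM in shPNISR, against 64.3, 109 and 62.7 CPM in shNC. PDK1, the kinase that shuts pyruvate dehydrogenase and so keeps pyruvate out of mitochondria, had 37.2 to 39.1 CPM in shPNISR, against 23.0, 51.5 and 21.0 CPM in shNC. In these last 3 genes shNC 2 exceeded all shPNISR libraries.

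None of these 5 enzymes and regulators passed in the edgeR test with all 6 libraries, while limma voom called ALDOC (1.47 ± 0.38, adjusted p = 0.0496) and ENO2 (0.99 ± 0.25, adjusted p = 0.0432). The fitted values were 1.00 ± 0.79 for ALDOC, 0.82 ± 0.46 for ENO2, 0.44 ± 0.58 for PFKFB4, 0.22 ± 0.18 for PFKFB3 and 0.25 ± 0.35 for PDK1. Without shNC 2 all 5 rose, ALDOC by 2.24 ± 0.14 (adjusted p = 2.32e-09), ENO2 by 1.45 ± 0.12, PFKFB4 by 1.27 ± 0.14, PDK1 by 0.78 ± 0.13 and PFKFB3 by 0.53 ± 0.11.

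The first step of glycolysis, phosphorylation of glucose, is run by hexokinases. HK1 had 294, 266 and 256.5 CPM in shPNISR 1 to 3, against 216, 316 and 192 CPM in shNC 1 to 3. HK2, the isoform usually described as hypoxia-inducible, had 127, 112 and 123.4 CPM in shPNISR, against 100.2, 161 and 80.5 CPM in shNC. Both were highest in shNC 2. The HK2 fit was 0.09 ± 0.22 with all 6 libraries and 0.41 ± 0.12 without shNC 2 (adjusted p = 0.033), and it was below 0 without shNC 1 or without shNC 3. Per kilobase of exon HK1 stood at 43.2 CPM in shPNISR and 38.3 CPM in shNC, and HK2 lower, at 19.9 CPM in shPNISR and 18.8 CPM in shNC.

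The abundant enzymes of the later steps of the pathway moved less. TPI1, GAPDH, PGK1, PGAM1, ENO1, PKM and LDHA, which carry triose phosphate through to lactate, made up 90.4% to 92.3% of the enzyme counts. GAPDH had 5317, 5525 and 4500.2 CPM in shPNISR 1 to 3, against 3803, 5139 and 4036 CPM in shNC 1 to 3. PGK1 had 1098, 1142 and 936 CPM in shPNISR, against 687, 1067 and 679 CPM in shNC. LDHA, which turns pyruvate into lactate, had 1706, 1857 and 1547 CPM in shPNISR, against 1206, 1803 and 1229 CPM in shNC. For these 3 the shNC 2 level lay inside the shPNISR range. None of the 7 passed with all 6 libraries, their fits lying between 0.14 (TPI1) and 0.38 (PGK1), and PGK1 passed when no low-count filter was used (adjusted p = 0.0412). Without shNC 2, PGK1 (0.63 ± 0.13, adjusted p = 0.00344) and LDHA (0.48 ± 0.13, adjusted p = 0.021) rose, and TPI1, GAPDH, PGAM1, ENO1 and PKM did not pass. GPI, which isomerizes glucose 6-phosphate, did not pass either way (0.36 ± 0.12 without shNC 2, adjusted p = 0.0611). Counts on named TPI1 pseudogenes came to 3.089% of its own, and a GAPDH antisense RNA on the other strand covers 14.2% of GAPDH exon bases.

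The largest differences between libraries were in secreted and stress-response HIF targets. ANGPTL4, a secreted inhibitor of lipoprotein lipase, had 28.1, 34.2 and 27.7 CPM in shPNISR 1 to 3, against 0.552, 23.8 and 0.666 CPM in shNC 1 to 3. That is 475, 552 and 452 counts in shPNISR and 10, 368 and 10 counts in shNC. ANKRD37, a small ankyrin-repeat protein, had 23.3, 40.7 and 41.9 CPM in shPNISR, against 1.21, 37.5 and 1.93 CPM in shNC. In both genes shNC 2 was within or near the shPNISR range and the other control libraries were close to absent. ANKRD37 shares 35.2% of its exon bases with UFSP2 on the opposite strand, but UFSP2 stayed at 22.7 to 26.5 CPM in shPNISR and 20.7 to 27.3 CPM in shNC. NDRG1, a stress-response protein linked to differentiation, had 242, 290.1 and 297 CPM in shPNISR, against 44.8, 273 and 41.2 CPM in shNC. DDIT4 (REDD1), which restrains the growth kinase mTORC1, had 267, 298 and 281 CPM in shPNISR, against 66.5, 400.2 and 71.9 CPM in shNC. NDRG1 in shNC 2 was inside the shPNISR range, and DDIT4 in shNC 2 was the highest of all 6 libraries.

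With all 6 libraries the fits of these 4 genes were large with large errors, at 1.86 ± 1.38 for ANGPTL4, 1.39 ± 1.35 for ANKRD37, 1.21 ± 0.90 for NDRG1 and 0.65 ± 0.85 for DDIT4, and the adjusted p ran from 0.564 to 0.756. By limma voom with all 6 libraries, ANGPTL4 (3.87 ± 0.71, adjusted p = 0.00751), ANKRD37 (2.97 ± 0.68, adjusted p = 0.0276) and NDRG1 (1.80 ± 0.45, adjusted p = 0.0411) were called higher and DDIT4 was not. Without shNC 2 these 4 rose by 5.61 ± 0.24 (adjusted p = 8.25e-12), 4.50 ± 0.35 (4.97e-05), 2.68 ± 0.14 (9.1e-11) and 2.02 ± 0.12 (1.69e-09), each with edgeR and adjustment over 16500 genes. In each, shNC 2 was the highest control library, so leaving it out lowered both the control mean and the control spread. The small p-values follow from that choice.

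**Figure D3:**
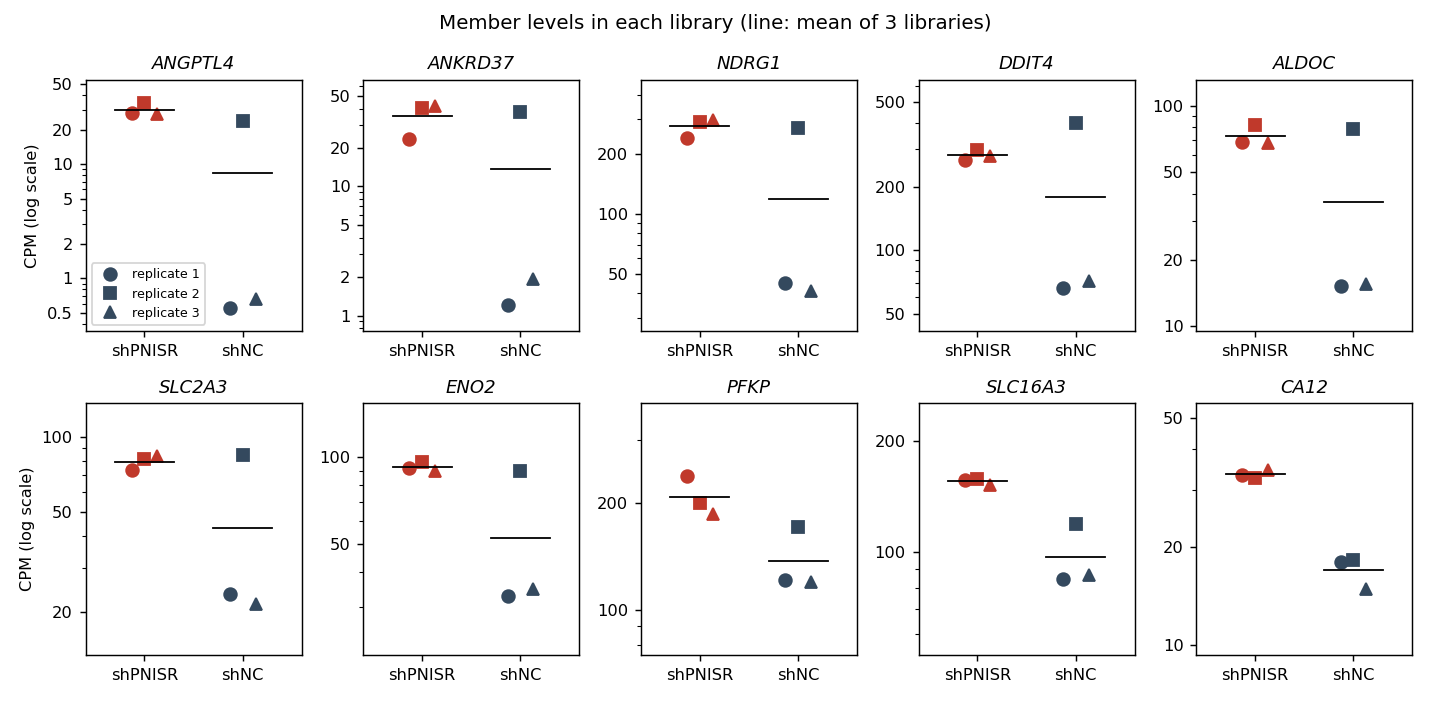
CPM on a log axis for single members, with 3 points for shPNISR and 3 for shNC, a marker shape per replicate number and a line at each group's mean. The shNC replicate 2 point sits at or near the shPNISR level for ANGPTL4, ANKRD37, NDRG1 and ALDOC, above it for DDIT4, and at the control level for CA12.

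BNIP3, a receptor for removal of mitochondria, had 42.3, 56.7 and 40.5 CPM in shPNISR 1 to 3, against 25.4, 60.1 and 30.0 CPM in shNC 1 to 3, and rose only without shNC 2 (0.75 ± 0.15, adjusted p = 0.00348). MXI1, an antagonist of MYC, had 40.4 to 43.3 CPM in shPNISR, against 35.6, 51.2 and 35.1 CPM in shNC, and did not pass in either fit. VEGFA, the main growth signal for blood vessels, had 60.3, 53.8 and 65.7 CPM in shPNISR, against 40.5, 62.7 and 37.6 CPM in shNC, and rose only without shNC 2 (0.61 ± 0.13, adjusted p = 0.00318). ADM, the vasodilator peptide adrenomedullin, had 9.12 to 12.2 CPM in shPNISR and 6.66 to 12.2 CPM in shNC, and did not pass in either fit. The highest control value of each of these 4 genes was that of shNC 2.

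The oxygen-sensing and matrix enzymes are relatives in chemistry, since all use molecular oxygen and all but LOX also use 2-oxoglutarate. EGLN3, a HIF prolyl hydroxylase, had 35.5, 43.0 and 37.4 CPM in shPNISR 1 to 3, against 19.8, 39.3 and 21.9 CPM in shNC 1 to 3. KDM3A, a histone H3 lysine demethylase, had 62.3, 64.9 and 72.1 CPM in shPNISR, against 43.8, 80.5 and 39.6 CPM in shNC. Both passed without shNC 2 (0.89 ± 0.14 and 0.67 ± 0.12) and not with all 6 libraries, although EGLN3 then passed with no low-count filter (adjusted p = 0.0153) and with the replicate number as a block, alone (0.0445) or with a GC and length correction (0.0422). EGLN1, the main HIF hydroxylase in oxygenated cells, missed the threshold without shNC 2 (0.56 ± 0.19, adjusted p = 0.0515). P4HA1, the catalytic subunit of collagen prolyl hydroxylase, had 77.4, 91.9 and 95.3 CPM in shPNISR, against 40.0, 99.9 and 48.2 CPM in shNC. Its paralog P4HA2 had 84.9, 91.7 and 78.1 CPM in shPNISR, against 53.7, 77.4 and 58.6 CPM in shNC. LOX, which crosslinks collagen, had 12.3, 17.5 and 15.8 CPM in shPNISR, against 6.07, 18.2 and 6.19 CPM in shNC. The P4HA2 groups did not overlap, while P4HA1 and LOX were highest in shNC 2. These 3 rose without shNC 2, by 1.00 ± 0.13, 0.59 ± 0.12 and 1.30 ± 0.19. None passed with all 6 libraries, although P4HA2 then passed with no low-count filter (adjusted p = 0.0286) and with the GC and length correction and the block (0.0391).

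Leaving out shNC 2 changed the member counts from a handful to most. Without it, 25 of 35 members rose and none fell (71.4%), against a background of 7.78% of 16500 genes higher and 4.52% lower. By class, 10 of 17 enzymes (58.8%) and 15 of 18 other targets (83.3%) rose. The median log2 fold change was then 0.67 over the members, 0.41 over the enzymes, 0.87 over the other targets and -0.02 over all genes. Leaving out shNC 1 or shNC 3 instead gave 2 and 3 members higher, with backgrounds of 0.932% and 2.04% and member medians of 0.23 and 0.24. Since shNC 2 had the highest control level for every tested member, leaving it out lowers each control mean, and the 25 calls rest on 2 control libraries.

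**Figure D4:**
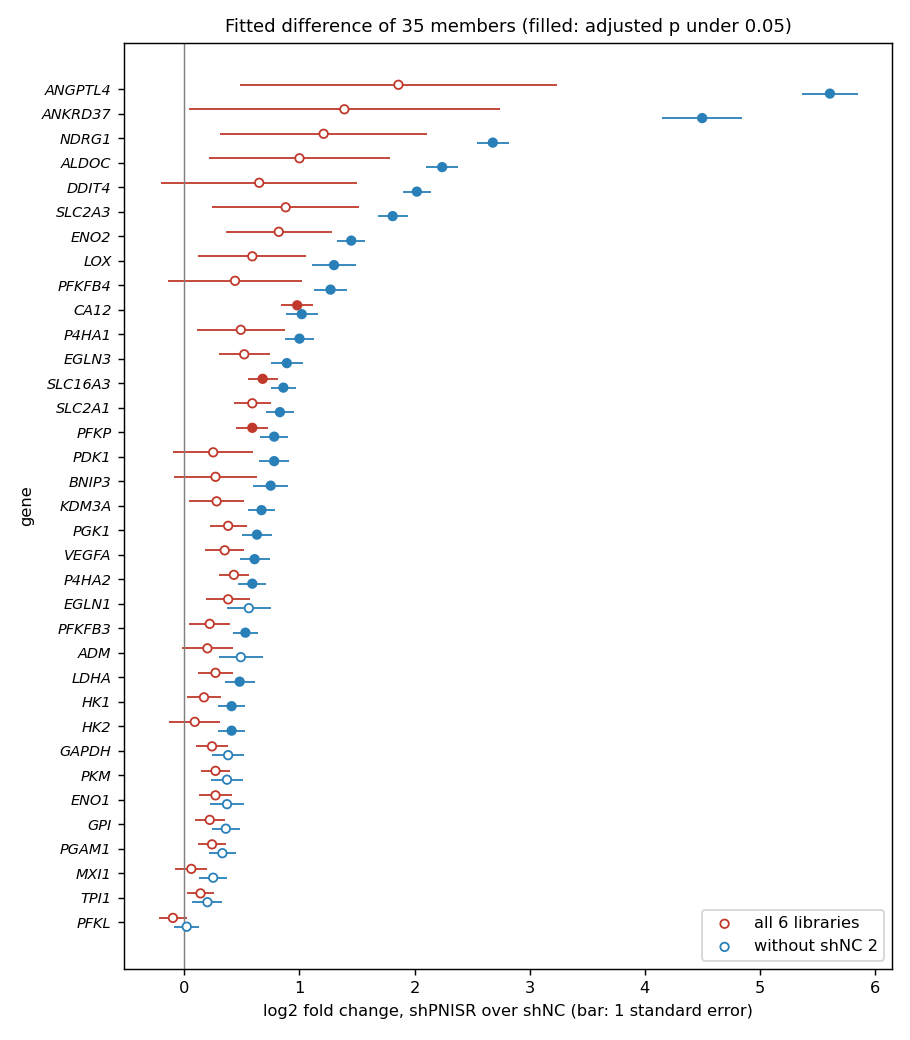
Fitted log2 fold change of shPNISR over shNC for the 35 tested members, with 1 standard error, once with all 6 libraries and once without shNC 2, filled where the adjusted p was under 0.05. Filled points number 3 with all 6 libraries and 25 without shNC 2, and the error bars shrink most for ANGPTL4, ANKRD37, NDRG1 and DDIT4.

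The distance from shNC 1 and shNC 3 was similar in shNC 2 and in the shPNISR libraries for many members and differed by over 0.3 on the log2 scale for 9 of 35. Set against the mean of shNC 1 and shNC 3, the shPNISR mean of ANGPTL4 was 5.62 higher on the log2 scale and shNC 2 was 5.29 higher. ANGPTL4, with the largest shift of all, is among these 9. For NDRG1 the pair of values was 2.69 and 2.67, for ALDOC 2.25 and 2.35, for SLC2A3 1.82 and 1.91, and for PGK1 0.63 and 0.64. CA12 departed from this, at 1.03 in shPNISR and 0.15 in shNC 2, and so did SLC16A3 (0.86 and 0.48). PFKP (0.78 and 0.51) stayed within 0.3. These 3 were the members called with all 6 libraries, a call that itself depends on the level in shNC 2. Others departed the opposite way, with shNC 2 further from shNC 1 and shNC 3 than the shPNISR mean was, as for DDIT4 (2.03 in shPNISR and 2.53 in shNC 2), PFKFB4 (1.27 and 1.75), PDK1 (0.79 and 1.23) and HK2 (0.42 and 0.83). In all, the shift was larger in the shPNISR mean for 13 members and larger in shNC 2 for 22. The values share shNC 1 and shNC 3 on both sides, so no correlation is given.

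**Figure D5:**
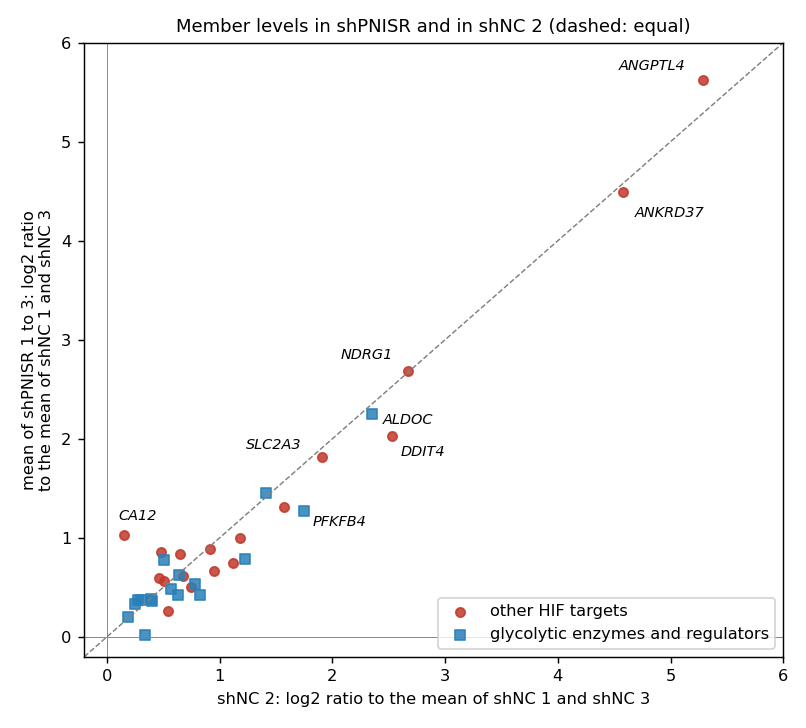
Each point is a member, with its log2 ratio to the mean of shNC 1 and shNC 3 in shNC 2 (horizontal) and in the mean of the 3 shPNISR libraries (vertical), and a dashed line where both are equal. Points lie on both sides of the line up to ANGPTL4 (5.62 in shPNISR and 5.29 in shNC 2), and CA12 (1.03 in shPNISR and 0.15 in shNC 2) lies above it.

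Some members were among the genes of the whole table that varied most between control libraries. Over 11686 genes with a mean of at least 5 CPM, a limit set after values were seen, ANGPTL4 had the largest standard deviation of log2 CPM within shNC (2.91) and ANKRD37 the next (2.62). NDRG1 ranked 4, DDIT4 5 and ALDOC 7. Of the 11686 ranked genes 35 were members. Of the 10 most variable genes in shNC 5 were members, and of those in shPNISR 0 were. ANGPTL4 and ANKRD37 reached the limit of 5 CPM only through shPNISR and shNC 2. The high ranks of members in shNC restate the split between shNC 2 and the other control libraries and are not separate support. Of the 50 most variable in shNC 9 were members, while abundant enzymes such as TPI1 ranked far lower. The median standard deviation of the members was 0.14 in shPNISR and 0.40 in shNC, against 0.14 and 0.15 over all ranked genes. Within the shPNISR group the median member was as even as the median gene.

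At the mRNA level, the 16 tested genes of the HIF machinery were fitted between -0.45 and 0.42 on the log2 scale with all 6 libraries. None of them passed, beside 3.14% of all tested genes called in either direction, a share at which 16 genes may hold none. HIF1A had 66.6, 72.6 and 87.1 CPM in shPNISR 1 to 3, against 93.5, 79.9 and 92.4 CPM in shNC 1 to 3 (-0.23 ± 0.12, adjusted p = 0.333), and VHL averaged 162 ± 10.1 CPM in shPNISR and 185 ± 12.6 CPM in shNC (SD, n = 3 each). Without shNC 2, EPAS1, which encodes HIF-2alpha, and CITED2, a HIF-inducible competitor for its coactivator, rose by 0.59 ± 0.13 and 0.48 ± 0.13. SIAH1, a ubiquitin ligase for the EGLN enzymes, fell by 0.52 in that fit. Together they are 18.8% of the 16, against 12.3% of all genes tested without shNC 2. EPAS1 had 40.4, 33.1 and 37.2 CPM in shPNISR, against 24.7, 34.2 and 24.1 CPM in shNC, again with shNC 2 inside the shPNISR range.

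Of 29 tested further HIF targets that are not members, 20 had shNC 1 and shNC 3 both below the other 4 libraries, against 17.7% of all tested genes. With all 6 libraries 2 rose and none fell (6.9%, against 2.3% of all tested genes higher), and without shNC 2 14 rose and none fell (48.3%, against 7.78%). The 2 were NT5E, the enzyme CD73 that makes extracellular adenosine (1.08 ± 0.16, adjusted p = 0.000694), and RIOK3, an atypical kinase (0.67 ± 0.13, adjusted p = 0.00551, and 0.0537 without shPNISR 3). NT5E had 20.9, 22 and 21.7 CPM in shPNISR 1 to 3, against 9.16, 12 and 9.52 CPM in shNC 1 to 3, and shNC 2 lay near the other controls. BHLHE40, a repressor of circadian genes, had 64.9, 70.3 and 65.1 CPM in shPNISR, against 19.3, 87.9 and 16.8 CPM in shNC, and MIR210HG, the host RNA of the hypoxia microRNA miR-210, had 7.46, 8.12 and 9.57 CPM in shPNISR, against 1.77, 9.71 and 2.00 CPM in shNC. Both were highest in shNC 2, did not pass with all 6 libraries and rose without it (1.88 ± 0.13 and 2.15 ± 0.24).

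Among other genes of glycolysis, pyruvate and lactate handling, HKDC1, a member of the hexokinase family, rose with all 6 libraries. It had 4.15, 4.09 and 3.13 CPM in shPNISR 1 to 3, against 1.55, 1.1 and 1.2 CPM in shNC 1 to 3 (1.55 ± 0.28, adjusted p = 0.00392, edgeR). Its groups did not overlap, and shNC 2 was the lowest library. Without shNC 2, ALDOA and PGM1, the enzyme that links glycogen to glycolysis, rose by 1.17 ± 0.28 and 0.38 ± 0.12, and MPC1, a subunit of the mitochondrial pyruvate carrier, fell by 0.52. ALDOA had a mean of only 3.75 CPM in shPNISR and 2.19 CPM in shNC, so its counts may be incomplete.

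Some other measures moved with the same split, and their part in the member results was not tested. The 13 mRNAs encoded in mitochondria took 1.69%, 1.61% and 2.00% of counts in shPNISR 1 to 3, against 2.42%, 1.80% and 2.48% in shNC 1 to 3. None of them passed with all 6 libraries, beside 0.832% of all tested genes lower. Without shNC 2, 9 of them fell (69.2%, against 4.52% of all tested genes lower). The summed level of 9 fibroblast markers was 25.2 to 29.6 CPM in shPNISR, against 16.9, 25.5 and 17.3 CPM in shNC, most of it COL1A1, with COL1A2 at 0 counts in every library. The summed level of 8 leukocyte markers was 4.68, 6.14 and 6.25 CPM in shPNISR, against 3.81, 5.11 and 4.73 CPM in shNC, so the groups overlapped, with PTPRC at 0 throughout. The summed level of 5 endothelial markers was 1.41 to 1.66 CPM in shPNISR, against 0.718, 1.49 and 0.866 CPM in shNC, with TEK at 0 throughout. Epithelial markers fitted the labelled cell type, with EPCAM at 145, 184 and 153 CPM in shPNISR and 118, 95.4 and 144 CPM in shNC, lowest in shNC 2, and CDX2 at 68.3 to 92.2 CPM in shPNISR and 68.3 to 86.3 CPM in shNC, although KRT20 and CEACAM5 were near 0. The summed level of 10 epithelial markers was 4855 to 6101 CPM in shPNISR and 4360.3 to 4986 CPM in shNC. With all 6 libraries 1 of 8 tested epithelial markers rose (KRT19, which did not pass in 6 alternatives, the GC and length correction among them), 1 of 3 tested leukocyte markers fell (LYZ, with shNC 2 at the control level), and none of 5 tested fibroblast markers and not the 1 tested endothelial marker passed. Beside these marker calls, 2.3% of all tested genes were higher and 0.832% lower. Without shNC 2, COL1A1 and PDGFRB of the fibroblast list, CD14 of the leukocyte list and LGALS4 of the epithelial list rose as well, beside 7.78% of all tested genes higher.

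GC content also differed between libraries. Members had a median GC content of 52.8%, against 49.0% over all tested genes. Genes in the fifth with the most GC deviated by a median of 0.14, 0.08 and 0.04 on the log2 scale in shPNISR 1 to 3, against -0.15, 0.00 and -0.08 in shNC 1 to 3. In the fifth with the least GC the median was -0.19, -0.06 and 0.05 in shPNISR, against 0.10, -0.02 and 0.14 in shNC. After a correction for GC content and transcript length, made library by library, the same 3 members were called higher, against a background of 2.01%. Fits of single members moved in both directions with it. The log2 fold change of GAPDH went from 0.24 to 0.10 and that of TPI1 from 0.14 to 0.0024. That of PDK1 went from 0.25 to 0.48 and that of KDM3A from 0.28 to 0.46. With that correction and without shNC 2, 27 of 35 were called higher, against 7.83%.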

How the data were processed

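RNA was sequenced from HCT-8 cells given a PNISR or a control hairpin plasmid, 3 libraries each. The authors deposited read counts as whole numbers per Ensembl gene, with no normalization. HISAT2 2.0.4 and GRCh38 are named per the submitters' processing notes. Not given in the sources used here are the counter, its annotation and its strand setting. Reads of overlapping or antisense genes therefore cannot be told apart, and those of near-identical copies may have been lost or shared.

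Genes were filtered with filterByExpr (minimum count 10, minimum total 15), which left 16102, scaled with TMM factors and tested with edgeR 4.0.16 in R 4.3.3 (robust quasi-likelihood, two-sided, Benjamini-Hochberg over all tested genes at 0.05). The standard error is the size of the log2 fold change over the root of the F statistic. CPM uses TMM-scaled library sizes. Deviations use log2 CPM with a prior count of 2. Positions, exon lengths, GC content and overlaps came from GENCODE 29, and promoters from RefSeq. Same-numbered libraries were checked for pairing. Alternatives were other scalings (DESeq2 size factors, upper quartile, library totals), other filters, DESeq2 1.42.0, limma 3.58.1 voom, no robust dispersion, a replicate block, a loess correction (span 0.4) for GC content and length, and leaving out each library. In counts simulated for this comparison (15854 genes), the test found 62 of 100 simulated 1.5-fold changes, 89 of 100 simulated 2-fold changes and 3 false ones. The changed genes were drawn only from well-counted genes, and no simulated library was shifted as shNC 2 was. These rates therefore need not hold for the members.

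The members and lists were chosen with earlier results of these data known. All 36 members and PNISR are named, and from other lists up to 4 members that passed, or the most abundant ones where none did. The choice of BHLHE40, MIR210HG, HIF1A, VHL and ALDOA among them was made after their values were seen. Splicing was not analysed here. One gene of the glycolysis, pyruvate and lactate list, and counts over that list, are not reported here.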

Additional observations from a re-analysis of the deposited data

How the results depend on the processing

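The count of members called higher, 3 with all 6 libraries, was 7 with no low-count filter (2.17% of all genes), 9 with limma voom (2.42%), 5 with the replicate block (2.42%), 6 with the GC and length correction and the replicate block (1.54%), and 27 with that correction and without shNC 2. Leaving out 1 library gave 2 to 25, the highest without shNC 2. Voom added ANGPTL4, ANKRD37, NDRG1, ENO2, ALDOC and SLC2A1, no filter SLC2A1, EGLN3, P4HA2 and PGK1, the block SLC2A1 and EGLN3, and the correction with the block P4HA2 as well. No member was called lower under any alternative. CA12 and SLC16A3 were called under all of them, PFKP under all but 3 that left out 1 library. Over all genes, 371 higher became 642 with no filter, 247 with the correction and the block, 1282 with the correction and without shNC 2, and 133 to 1284 with 1 library left out. The 134 lower became 71 with library totals, 354 with no filter, 229 with DESeq2, 1051 with the correction and without shNC 2, and 30 to 746 with 1 library left out. With 1 library left out, HK2 ranged from -0.11 to 0.41, PFKL from -0.17 to 0.02 and MXI1 from -0.04 to 0.25, crossing 0. The cause was not tested. Same-numbered libraries of the groups correlated at 0.119, -0.0814 and -0.15 in their deviations, and differently numbered ones at -0.226 to 0.307. The labels state no pairing, and such correlations over 3 libraries a group cannot exclude it. Whether the spread between 3 libraries or the depth limits the calls was not tested, and CA9 had too few counts to enter the test.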

Other observations

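Some genes outside the pathway lists shared the members' arrangement and were noticed after their values were seen. TXNIP, an inhibitor of glucose uptake that is induced by glucose, had 135, 149.5 and 181 CPM in shPNISR 1 to 3, against 57.1, 287 and 62.6 CPM in shNC 1 to 3. IGFBP3, a secreted binder of insulin-like growth factors, had 70.7, 81.1 and 61.8 CPM in shPNISR, against 17.8, 84.7 and 17.2 CPM in shNC. The stress and immediate-early genes ATF3, FOS and JUN were also highest in shNC 2. JUN had 322, 366 and 396 CPM in shPNISR, against 225, 809 and 236 CPM in shNC. None of these 5 genes passed with all 6 libraries (edgeR, adjusted p of 0.642 to 0.926).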
